A study of Mus musculus with 6 samples.

Results

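The prolactin receptor gene Prlr, the aminotransferase gene Agxt2 and the klotho gene Kl were examined in embryonic and adult choroid plexus. They were chosen by name for their high adult values, so the differences of these genes between the ages are given as a description, with no test. The unit of measurement is the transcript cluster, which groups the probe sets lying in the exons of a gene. Every cluster whose symbol field held Prlr, Agxt2 or Kl as a whole entry was taken, which gave 3 of the 3956 clusters in the tables used here, and 3 of 4300 gene symbols. The first cluster (6828699) carries Prlr alone. The next (6828697) carries both Agxt2 and Prlr. The last (6935777) carries Kl alone.

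RNA was taken from whole lateral ventricular choroid plexus of healthy Swiss Webster mice at embryonic day 15 (E15) and in the adult. The E15 group held 3 pools of 30 embryos each, of mixed sex, and the adult group held 3 pools of 10 females each, with 1 array for each of the 6 pools. RNA was amplified in a pair of rounds before hybridisation to an Affymetrix mouse exon array. The files give 1 log2 value per age for each cluster, merged by the authors over the 3 arrays, so the values used here carry no error and no p-value is given. Values of single arrays were not analysed here. Age and sex cannot be told apart, because the adults were all female and the embryos were not. In whole tissue, fewer cells of a type and less RNA per cell cannot be told apart either.

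Prolactin is a pituitary hormone best known for its action on the mammary gland. Its receptor belongs to the class I cytokine receptors, binds the kinase JAK2 and signals mainly through the transcription factors STAT5A and STAT5B, which in turn switch on the inhibitors CISH and SOCS2. The choroid plexus is known as a tissue that binds prolactin. Klotho is a membrane protein that pairs with FGF receptors to bind the hormone FGF23, and part of it is cut off and shed. Kidney, parathyroid gland and choroid plexus are its main sites of expression. AGXT2 is a mitochondrial enzyme, known from liver and kidney, that transfers the amino group of alanine to glyoxylate and also breaks down methylated arginines and a product of thymine catabolism.

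The sequences upstream of the genes are shown as a description, and the pair Prlr and Agxt2 lie next to each other. All 3 clusters were higher in adult, as their choice implies. No direction is known for Agxt2 itself, whose only cluster is shared with Prlr. The sequences were read from RefSeq (GRCm38.p6), in which all 3 genes were found, and stop at the base before the first base of each RefSeq gene. All are on the plus strand, at chr15:10176988-10177237 for Prlr, chr15:10358283-10358515 for Agxt2 and chr5:150952357-150952606 for Kl. Capitals mark matches on either strand to 4 motifs searched, TTCNNNGAA for STAT factors, TAATCC for OTX factors, the TATA box TATAAA and the GC box GGGCGG. No match overlapped another.
Prlr: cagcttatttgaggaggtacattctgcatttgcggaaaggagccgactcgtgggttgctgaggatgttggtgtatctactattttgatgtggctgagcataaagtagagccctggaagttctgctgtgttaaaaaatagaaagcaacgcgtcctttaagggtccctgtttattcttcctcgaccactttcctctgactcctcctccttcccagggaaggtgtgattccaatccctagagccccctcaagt
Agxt2: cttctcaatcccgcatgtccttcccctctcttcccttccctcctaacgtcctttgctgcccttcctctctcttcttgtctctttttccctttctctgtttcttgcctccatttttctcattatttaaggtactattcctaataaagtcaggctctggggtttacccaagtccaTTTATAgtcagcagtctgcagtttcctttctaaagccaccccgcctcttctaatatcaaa
Kl: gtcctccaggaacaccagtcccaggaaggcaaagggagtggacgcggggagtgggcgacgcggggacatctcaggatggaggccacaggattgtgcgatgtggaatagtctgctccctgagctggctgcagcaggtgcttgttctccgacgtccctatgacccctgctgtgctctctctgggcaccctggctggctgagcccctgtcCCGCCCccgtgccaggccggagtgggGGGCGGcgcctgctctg

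The Kl sequence differed in composition from the others. Its GC content was 66.8%, with 13 CpG dinucleotides, and 85.8% of the 32851 upstream windows of 250 bases in the RefSeq table had a lower GC content. The corresponding window of Prlr held 48.0% GC with 6 CpG. The Agxt2 window, which was taken from a transcript start inside the gene and runs slightly past the sequence shown, held 45.6% with 3 CpG. These compare with a median of 52.4% over all windows. Kl held 2 matches to the GC box, which 32.7% of all windows hold at least once. Agxt2 held 1 TATA box match, a motif found in 12.4% of windows. The OTX letters, found in 6.25% of windows, were in none of the windows of the 3 genes.

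RefSeq gives Prlr 2 further start sites, and the STAT letters lie before one of them. The match begins 110 bases upstream of that start and is shown in capitals with 20 bases on each side, at chr15:10223776-10223824 on the plus strand.
Prlr, further start: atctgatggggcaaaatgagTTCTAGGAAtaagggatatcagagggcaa
The same letters are held by 7.02% of all windows, and the windows of the other Prlr starts, of Agxt2 and of Kl did not have them. A match in letters is not a binding site.

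The cluster of Prlr alone had an authors' merged value of 4.08 in adult and -3.80 at E15, on a log2 scale centred near 0 for each cluster. The adult value was thus higher by 7.87, a fold of 234. The cluster shared by Agxt2 and Prlr stood at 3.32 in adult and -3.28 at E15, which is 6.60 apart or 97.1-fold. In both clusters the adult value was the higher one.

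The pair of clusters that carry Prlr differed from each other by 1.27 on the log2 scale, a ratio of 2.41 between their folds. The transcripts behind them also differ. The shared cluster lists a RefSeq transcript of Agxt2, a RefSeq transcript of Prlr and 8 Ensembl transcripts, and the cluster of Prlr alone lists a single cDNA and no RefSeq transcript. How much of the shared value comes from Agxt2 cannot be read from the table, and Agxt2 has no cluster of its own in either table. An Agxt2 level is therefore not separable here from that of Prlr.

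Kl had a merged value of 2.39 in adult and -2.39 at E15, which is 4.78 apart or 27.4-fold. It stood 3.10 below Prlr and 1.83 below the shared cluster on the log2 scale of the differences. The merged values of the ages lay almost evenly about 0, and their sum was 0.00 for Kl, 0.05 for the shared cluster and 0.28 for Prlr. The median size of this sum was 0.10 in the gene-level table. The centring of a cluster cancels in its difference, but a shift of a whole age does not. With each age re-centred on its median over the gene-level table, which holds only clusters at least 2-fold apart, the folds became 424 for Prlr, 176 for the shared cluster and 49.5 for Kl. With the medians taken over all clusters of either table they were 260.0, 108 and 30.4. These values hold a difference only, so they do not give a level at E15, nor show which gene is the most abundant in adult.

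**Figure D1:**
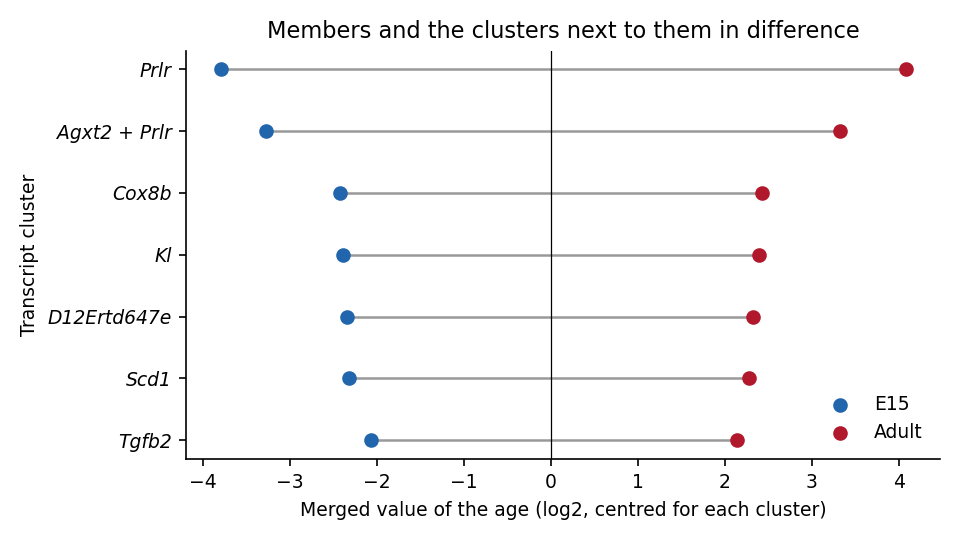
Merged log2 values of the ages, centred for each cluster, for the 3 clusters of Prlr, Agxt2 and Kl and the clusters next to them in difference (points, blue E15 and red adult, joined by a line; no error is held). Prlr spans -3.80 to 4.08 and the shared cluster -3.28 to 3.32, wider than the lines below them.

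The gene-level table, which lists clusters at least 2-fold apart with the authors' corrected p of at most 0.05, was ranked by the difference. Of its 1805 clusters 48.8% were higher in adult and 51.2% higher at E15. By at least 10-fold, 1.61% were higher in adult, a group of 29 that includes all 3 clusters described here, as their choice for a high adult value implies. Prlr was first and the shared cluster the next, both by difference and by size in either direction. Kl was at rank 4 by difference and at rank 10 by size. The clusters nearest to Kl were those of Cox8b, a muscle-type subunit of cytochrome c oxidase, with a difference of 4.85, and D12Ertd647e with 4.66. Scd1, which desaturates fatty acids, followed with 4.59, and Tgfb2, a secreted growth factor, with 4.21. Among the clusters higher in adult, Prlr and the shared cluster had no such close neighbours, since the shared cluster lay 1.75 above Cox8b.

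**Figure D2:**
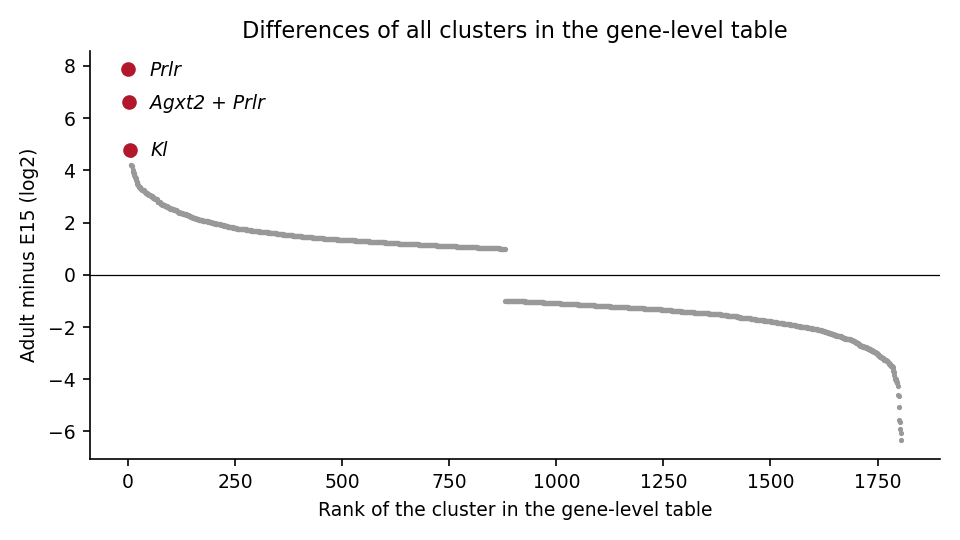
Adult minus E15 difference (log2) of the 1805 clusters of the gene-level table against their rank (grey points), with the 3 clusters of Prlr, Agxt2 and Kl in red. Prlr at 7.87 and the shared cluster at 6.60 lie apart from the curve, and Kl at 4.78 lies near its upper end; the empty band around 0 is the 2-fold threshold of the table.

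Signalling downstream of the prolactin receptor was looked up in a list of 35 further genes of prolactin and growth hormone signalling. Values were found for 9 of them, 3 higher in adult by at least 2-fold and 1 higher at E15, and their median difference was 0.65. Over all 3956 clusters of either table, 22.9% were higher in adult by at least 2-fold, 5.03% by at least 4-fold, and 24.4% were higher at E15 by at least 2-fold, with a median of -0.16. A gene has a value only if it passed the selection of one of the tables, so these counts are not shares of a whole pathway. The 3 genes higher in adult were the inhibitors Cish and Socs2 and the transcription factor Stat5a.

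Cish, which blocks STAT5 docking to the receptor and is itself a STAT5 target, stood at 1.48 in adult and -1.21 at E15, which is 2.69 apart or 6.47-fold. Socs2, a feedback inhibitor of growth hormone signalling, stood at 1.08 and -0.72, which is 1.80 apart or 3.48-fold. Stat5a stood at 0.68 and -0.62, which is 1.31 apart or 2.47-fold. For each of these genes the adult value was the higher one. Stat5b, which lies just under the 2-fold threshold, stood at 0.56 and -0.42, a difference of 0.99.

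The kinase that the receptor binds did not share this pattern in the merged values. Jak2 had a difference of -0.07, a fold of 1.05. Also below 2-fold were the PI3 kinase subunit Pik3r1 with a difference of 0.43 and the kinase Src with -0.41. Fyn, a relative of Src, was the gene higher at E15, at -1.78 (3.43-fold). The genes of the ligands, Prl, Gh, Prl3d1 and Prl3b1, and of the growth hormone receptor, Ghr, had no entry in either table, and no value is held for them. The same holds for Jak1, Tyk2, Stat3, Socs1 and Socs3.

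The array annotation gives a similar group under the term lactation, which both Prlr clusters carry. Among the 8 other clusters with this term, 3 were higher in adult by at least 2-fold (22.9% of all clusters). Higher at E15 were 2 of the 8 (24.4% of all clusters). Besides Stat5a, the adult ones were Xdh, an oxidase of purines needed for milk fat secretion, with a difference of 1.71, and the calcium pump gene Atp2b2 with 1.47. The caveolin gene Cav1, at -1.19, and Pthlh, which encodes a hormone relative of parathyroid hormone, at -1.25, were those higher at E15.

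Other class I cytokine receptors were looked up as well. Their differences are smaller than that of Prlr by necessity, since Prlr ranked first among all clusters and was chosen for its high adult value. Of 32 further receptors 7 had a value, with 1 higher in adult and 1 higher at E15 by at least 2-fold and a median difference of -0.24. Over all clusters, 22.9% were higher in adult and 24.4% at E15 by that size. Il13ra1, a receptor chain for interleukin 13, differed by 1.44 (2.72-fold) toward adult. Lifr, the receptor of leukaemia inhibitory factor, differed by -1.14 (2.20-fold), the higher value being that of E15. The leptin receptor Lepr at 0.77 and the shared signal chain Il6st at 0.68 were below 2-fold toward adult. Il2rg, whose cluster is shared with a predicted gene, stood at -0.93, and Csf2rb and Il4ra each at -0.24.

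The partners of klotho in endocrine FGF signalling were mostly without a value. Of 26 genes in that list beside Kl, 5 had an entry, with a median difference of -0.99. At least 2-fold higher in adult were 0 of them (22.9% of all clusters). Higher at E15 were 2 (24.4% of all clusters). Those 2 were Il17rd, an inhibitor of FGF signalling, at -1.17 (2.25-fold), and Spry1, another inhibitor, at -1.11 (2.17-fold) in a cluster shared with a predicted gene. A further cluster of Il17rd gave -1.07.

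Fgf15, the mouse hormone that acts through the klotho relative KLB, had a difference of -0.99, just under 2-fold. Among the receptors, Fgfr4 differed by -0.19 and the receptor-like Fgfrl1 by 0.80. Klb, the ligand genes Fgf23 and Fgf21, the receptors Fgfr1, Fgfr2 and Fgfr3, and the genes of the enzymes that shed klotho, Adam10, Adam17 and Bace1, had no entry. Whether they differ by less than the thresholds or were left out by the expression filter cannot be read from the tables.

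Klotho is also known for its role in calcium and phosphate balance. Of 30 genes of calcium, phosphate and vitamin D handling, 10 had a value, 2 of them at least 2-fold higher in adult and 3 higher at E15, with a median difference of 0.46. The shares over all clusters were 22.9% in adult and 24.4% at E15. Trpv4, a calcium-permeable channel of the plexus, differed by 2.92 (7.55-fold) toward adult. Atp1b1, a subunit of the sodium pump, followed at 1.70 (3.25-fold). The phosphate carriers Slc20a2 and Xpr1 were below 2-fold toward adult, at 0.75 and 0.84.

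Higher at E15 were Galnt3, whose enzyme glycosylates FGF23, with -1.39, Pthlh with -1.25 and the sodium-calcium exchanger Slc8a1 with -1.05. The cluster of Slc8a1 is shared with a cDNA clone, and a further cluster of the same pair gave -0.55. Stc1, the gene of a calcium-regulating hormone, differed by 0.00. The vitamin D receptor Vdr, the vitamin D enzymes Cyp24a1 and Cyp27b1 and the channels Trpv5 and Trpv6 had no entry.

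For AGXT2, 27 genes of its substrates and of related aminotransferases were looked up, and 10 had a value. Of these, 4 were at least 2-fold higher in adult and 2 higher at E15, with a median difference of 0.25. The shares over all clusters were 22.9% in adult and 24.4% at E15. Abat, which transfers the amino group of GABA, differed by 2.02 (4.06-fold) toward adult, and Got1, the cytosolic aspartate aminotransferase, by 1.37 (2.58-fold). Dpyd, the first enzyme of pyrimidine breakdown, differed by 1.36. Hibch, an enzyme of valine breakdown, stood at 0.73, below 2-fold.

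Methylated arginines inhibit nitric oxide synthases, and genes of this branch went both ways. Nos1, the neuronal synthase, differed by 3.15 (8.87-fold) toward adult, whereas Nos2 and Nos3 were below 2-fold at -0.22 and -0.56. Ddah1, which hydrolyses the methylated arginines that AGXT2 can also use, was higher at E15, at -1.96 (3.90-fold). Slc7a1, a carrier of arginine, was also higher at E15, at -2.04 (4.11-fold). Agxt, Ddah2, Prmt1 and the relatives Etnppl and Phykpl had no entry.

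**Figure D3:**
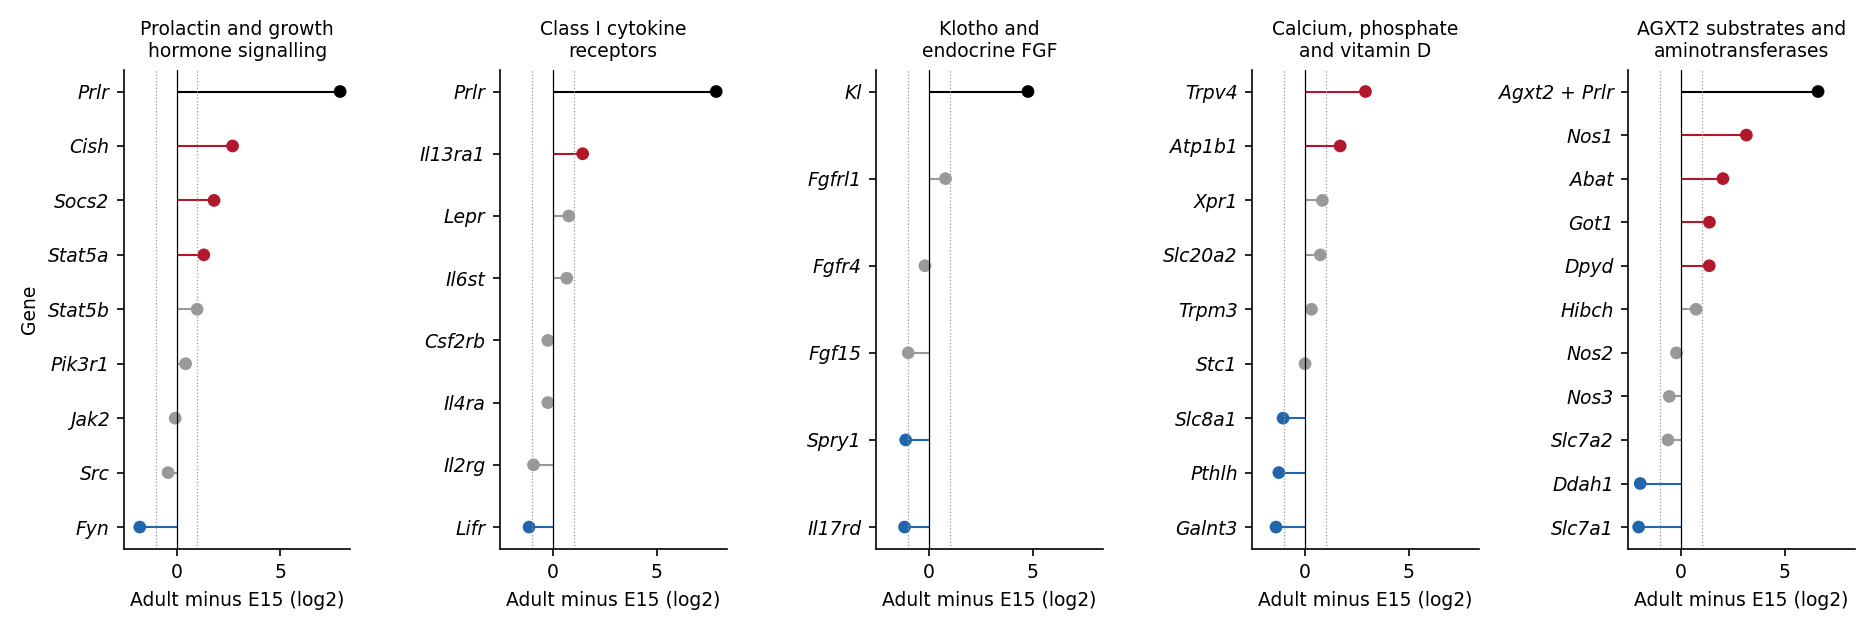
Adult minus E15 difference (log2) of genes with a value in 5 gene lists, leaving out a few not reported by name (black, genes of Prlr, Agxt2 and Kl; red, at least 2-fold higher in adult; blue, at least 2-fold higher at E15; grey, below 2-fold; dotted lines mark 2-fold). The black points lie at 7.87, 6.60 (the cluster shared by Agxt2 and Prlr) and 4.78. They lie beyond all other genes shown, as their choice for high adult values implies. The next is Nos1 at 3.15.

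Genes that lie beside the members were compared in RefSeq gene order, with 5 protein-coding genes taken on each side where the chromosome had them. Agxt2 directly follows Prlr on chromosome 15. Of the 10 other genes around this pair, 1 had a value, Brix1, a factor of ribosome assembly, with -0.52. Its neighbours Spef2, Il7r, Dnajc21 and Rad1 had no entry. Around Kl on chromosome 5, 4 of 8 genes had a value. Stard13, which directly follows Kl, differed by 1.06 (2.08-fold) toward adult. Rfc3, of the DNA replication clamp loader, had -1.45, and N4bp2l1 and Brca2 were below 2-fold at 0.55 and -0.05.

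**Figure D4:**
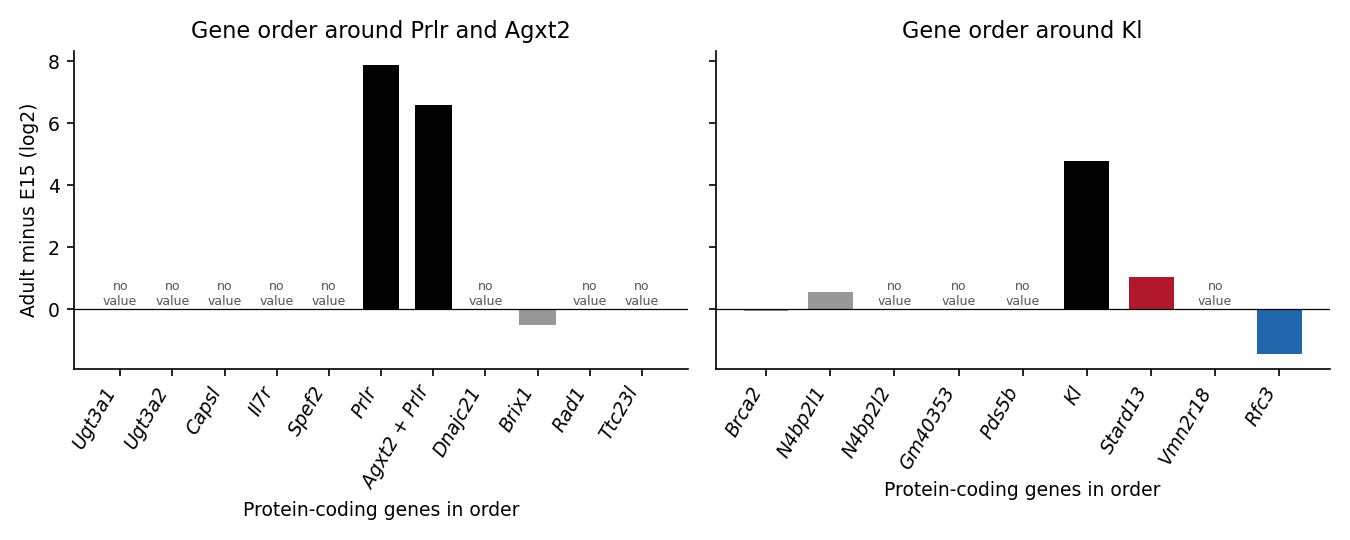
Adult minus E15 difference (log2, bars from 0) of protein-coding genes in chromosomal order, up to 5 on each side of Prlr and of Kl (black, Prlr, Agxt2 and Kl; red, at least 2-fold higher in adult; blue, at least 2-fold higher at E15; grey, below 2-fold). Genes marked as without a value are in neither table. The tall bars of 7.87, 6.60 (the cluster shared by Agxt2 and Prlr) and 4.78 follow from the choice of these genes for high adult values. The other bars reach at most 1.06 toward adult.

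The exon-level list, which holds clusters past the authors' thresholds on an analysis of variance and an index for exon use, includes 1 of the 3 clusters. Kl is listed there with 19 probe sets, against a median of 13 for the 3369 clusters of that list, which range from 2 to 109. The list also asks that enough probe sets be detected above background at both ages, a condition that Kl therefore met at E15 as well. Neither cluster of Prlr is on it. A cluster can be missing for that reason or for want of a difference in exon use, and the tables do not say which.

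Markers of other cells differed between the ages as well, and their part in the differences above was not tested. Over all clusters, 22.9% were at least 2-fold higher in adult and 24.4% higher at E15. At least 2-fold higher in adult were 4 of 5 neuron markers with a value (of 8), among them Syt1 at 1.97 and Camk2a at 2.66. The fifth, Gap43, was higher at E15, at -1.03. Of the 4, only Syt1 is among the gene-level clusters. Camk2a, Snap25 and Slc17a7 are in the exon-level list alone, so they did not pass the authors' gene-level filters. Also higher in adult were both oligodendrocyte markers with a value (of 6), with Mbp at 2.09. So were 4 of 6 macrophage and MHC class II markers (of 11), all 4 of them genes of MHC class II antigen presentation, with Cd74 at 3.16. The others with a value, Csf1r at -0.92 and Ptprc at -0.15, were below 2-fold. At least 2-fold higher at E15 were 10 of 10 cell cycle, 7 of 8 mesenchyme, 5 of 7 erythroid, 5 of 5 neural progenitor and 4 of 4 endothelial markers with a value. Of the markers with a value, 2 of 5 for meninges and 2 of 3 for ependyma were at least 2-fold higher at E15, with 1 meningeal marker higher in adult. Among those higher at E15, Pdgfra, Tie1 and Slc22a6 were likewise in the exon-level list alone. The Y-linked genes with a value, 3 of 4, were all higher at E15, the group that held males. Of 19 epithelial markers of the plexus 8 had a value, 3 at least 2-fold higher in adult (Slc4a10 at 2.32, Cldn2 at 2.10 and Cab39l at 1.43) and 2 higher at E15 (Kcne2 at -1.13 and Lmx1a at -1.14). The defining epithelial genes Ttr, Folr1, Otx2, Kcnj13 and Aqp1 had no entry, so the labelled tissue could not be checked against them by level.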

How the data were processed

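Choroid plexus RNA of 6 pools, 3 at E15 and 3 adult, was measured on Affymetrix mouse exon arrays. The authors normalised the gene-level log2 values with Affymetrix Power Tools by RMA, as the submitters' processing notes name them, kept genes by an expression filter, an unpaired test at 0.05 after adjustment by Benjamini-Hochberg and a fold of 2, and deposited 1 log2 value per age, centred for each cluster. Genome build and versions are not given in the sources used here. The deposited tables also hold the authors' fold changes, directions and splicing indices, which compare the ages and were not used. The number of probe sets is the authors' own, as deposited.

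The tables read were a gene-level table (1805 clusters), an exon-level list (3369) and their 1218 common clusters. Of their columns, 0 hold a single array, so the planned model could not be fitted. A difference is adult minus E15, and a fold 2 to its size. A gene was taken from a cluster of its own, otherwise from the shared cluster with the largest difference. The members and lists were chosen with earlier results of these data known. Genes were named as list members at least 2-fold apart or needed for a role, the 3 clusters on each side of a member in difference, and 5 chromosomal neighbours on each side. Ontology terms and motifs were chosen later. A few genes counted in the lists are not reported by name here. Counting was tested on simulated data. Python 3.11.15, numpy 2.4.6, pandas 2.3.3 and matplotlib 3.10.9 were used.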

Additional observations from a re-analysis of the deposited data

How the results depend on the processing

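The values used here are merged over the replicates, so a change beyond 1.5 times the reported value or count is given here. Re-centring each age on its median over the gene-level clusters adds 0.85 to every difference, and over all clusters 0.15. The differences of Prlr, the shared cluster and Kl became 8.73, 7.46 and 5.63 with the former, and their folds 424, 176 and 49.5. The mean over both Prlr clusters gave 7.24, a fold of 151. On the log2 scale none of the alternatives run moved the 3 differences beyond 1.5 times, and on the fold scale those named here did. These follow from the shift and from the lower value of the shared cluster. Their ranks did not move by that factor under any alternative run.

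The small list counts depended on the threshold. At 1.5-fold, the genes higher in adult numbered 5 for prolactin signalling, 3 for cytokine receptors, 1 for klotho signalling and 5 for calcium handling, and those higher at E15 numbered 2 for cytokine receptors. At 4-fold, the genes higher in adult were 1 for prolactin signalling (Cish), 0 for cytokine receptors, 1 for calcium handling and 2 for AGXT2, and those higher at E15 were 0 for prolactin signalling, 0 for cytokine receptors, 0 for klotho signalling, 0 for calcium handling and 1 for AGXT2. Re-centring on all clusters of either table left 0 cytokine receptors and 1 klotho signalling gene at E15, and clusters with 1 symbol left 1 klotho signalling gene there. These follow from the thresholds and clusters themselves.

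No paired analysis was possible because the columns used here are merged over the arrays of an age and carry no replicate number, although the labels number the arrays. Leaving out single arrays was not run, because the columns used here are merged over the arrays of an age. Values of single arrays were not analysed here, and no signal over background can be read from the centred values.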

Other observations

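The annotation of the array gave further groups that the members belong to, looked up after the values were seen and given without a test. The cluster shared by Agxt2 and Prlr carries the term pyridoxal phosphate binding, for enzymes that use vitamin B6. Among the 14 other clusters with this term in either table, 8 were at least 2-fold higher in adult and 1 higher at E15, with a median difference of 1.33. The shares over all clusters were 22.9% in adult and 24.4% at E15. Under transaminase activity, Tat, the tyrosine aminotransferase, had a difference of 1.49, and Ccbl2, a kynurenine aminotransferase, stood at 0.99, just below 2-fold. Sox4, a transcription factor that the annotation also places there, was at -1.46.

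Kl is annotated as a hydrolase acting on glycosyl bonds, the family of enzymes its extracellular part resembles. Among the 19 other clusters with this term, 8 were at least 2-fold higher in adult and 0 higher at E15, with a median difference of 0.79. The shares over all clusters were 22.9% in adult and 24.4% at E15. Of 6 other clusters under the narrower term for hydrolysis of O-glycosyl compounds, 3 were at least 2-fold higher in adult and 0 higher at E15. These were Gla and Gaa, which encode lysosomal glycosidases, with differences of 1.58 and 1.07, and Chi3l1, a chitinase-like secreted protein, with 1.12.

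Broader terms of the members went both ways. Over all 3956 clusters 22.9% were higher in adult and 24.4% higher at E15 by at least 2-fold. Under mitochondrion, a term of the cluster shared by Agxt2 and Prlr, 74 of 196 other clusters were higher in adult and 14 higher at E15. Under catalytic activity, a term of the shared cluster and of Kl, these were 89 and 22 of 208, and under metabolic process and carbohydrate metabolic process, terms of Kl, 81 and 19 of 184 and 13 and 1 of 49. Under integral to membrane, which all 3 clusters carry, 368 of 1129 were higher in adult and 246 higher at E15. Under extracellular region, a term of Kl, 64 of 291 other clusters were higher in adult and 98 higher at E15. Under protein binding, also a term of Kl, these were 223 and 248 of 1059. Under receptor activity, a term of both Prlr clusters, 77 of 319 were higher in adult and 91 higher at E15, and under regulation of cell adhesion 1 and 2 of 6.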
